A study of Mus musculus with 41 samples.

Results

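Cdx1, Cdx2, Hnf4a, Hnf4g, Foxa1, Foxa2, Foxa3 and Isx are 8 DNA-binding transcription factor genes of the gut endoderm, taken by symbol from the 23366 genes counted in every library of an RNA-seq study of the mouse small intestine. The study asked what the transcriptional regulator Id2 does in the first intestinal stem cell progenitors, which are marked by the receptor Lgr5. Its 41 libraries, each from 250 sorted cells of mice on a mixed C57BL/6 and CD1 background, fall into 15 groups with 2 to 4 libraries each. At embryonic day 11.5 (E11.5), cells of single embryos were sorted as EpCAM+ epithelium from wild-type (wt) and Id2KO embryos, as Lgr5-EGFP+EpCAM+ epithelium from Id2KO embryos, and as mesenchyme, the EpCAM- fraction, from both genotypes (n = 3 in each of the 5 groups). At E13.5, cells pooled from 6 to 12 embryos were sorted as EpCAM+ or Lgr5-EGFP+EpCAM+ (n = 4 each). In adults of postnatal day 60, Lgr5-EGFP high stem cells formed a set of 4 libraries with no segment named, called the adult stem cell group here. A further 14 adult libraries held Lgr5+ stem cells of the anterior, middle or posterior segment of the small intestine, from wt and Id2KO mice (n = 2 each), with a Tomato+Lgr5+ selection from the posterior Id2KO intestine (n = 2). The labels name no knockout for the E13.5 and the adult stem cell group, and the Id2 allele and the source of the Tomato signal are not given. The EpCAM+ and mesenchymal sorts did not use Lgr5.

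Cdx1 and Cdx2 encode caudal-type homeodomain proteins, and Cdx2 is required for intestinal rather than gastric identity of the endoderm. Hnf4a and Hnf4g encode nuclear receptors that bind the same DNA element and keep genes of lipid handling and the brush border active in absorptive cells. Foxa1, Foxa2 and Foxa3 encode winged-helix pioneer factors that open chromatin in endodermal organs, and in the intestine Foxa1 and Foxa2 act in goblet and enteroendocrine differentiation. Isx encodes an intestine-restricted homeodomain protein, a target of Cdx2, that represses genes of vitamin A uptake.

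RefSeq promoter entries on GRCm38.p6 matched 6 of the 8 genes, with 9 start sites in all. The 250 bases upstream of each start were searched on both strands for 5 motifs: TTTATG for Cdx proteins, TGTTTAC and TGTTTGC for Foxa proteins, CAAAGTCCA for Hnf4 and the half-site GTTAAT for Hnf1. Among 32851 RefSeq promoters of this length, 10.8% held TTTATG, 3.17% TGTTTAC, 4.3% TGTTTGC, 0.384% CAAAGTCCA and 6.43% GTTAAT. The windows below are those in which one of the searched motifs stood, and they are shown because 2 of them, those of Cdx2 and Foxa1, hold a motif of the Foxa family described here. Capitals mark the motif matches, each written as it reads on the gene's strand, 5′ to 3′.
Cdx2, minus strand, chr5:147307250-147307499: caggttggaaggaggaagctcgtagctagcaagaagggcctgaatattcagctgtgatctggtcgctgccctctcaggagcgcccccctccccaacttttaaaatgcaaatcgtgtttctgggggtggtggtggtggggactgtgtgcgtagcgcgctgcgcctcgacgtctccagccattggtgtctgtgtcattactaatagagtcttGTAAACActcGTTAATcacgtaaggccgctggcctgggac
Hnf4a start 2, plus strand, chr2:163546905-163547154: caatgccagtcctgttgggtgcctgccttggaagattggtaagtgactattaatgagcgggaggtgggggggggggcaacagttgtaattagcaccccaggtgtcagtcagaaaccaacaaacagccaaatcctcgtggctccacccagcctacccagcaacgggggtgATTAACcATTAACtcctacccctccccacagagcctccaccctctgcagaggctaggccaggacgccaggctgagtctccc
Foxa1, minus strand, chr12:57546112-57546361: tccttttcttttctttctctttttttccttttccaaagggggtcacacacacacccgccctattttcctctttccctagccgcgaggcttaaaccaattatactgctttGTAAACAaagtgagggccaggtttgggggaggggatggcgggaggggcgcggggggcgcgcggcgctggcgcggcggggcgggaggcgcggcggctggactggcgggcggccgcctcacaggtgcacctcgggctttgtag
Foxa2 start 3, minus strand, chr2:148045465-148045714: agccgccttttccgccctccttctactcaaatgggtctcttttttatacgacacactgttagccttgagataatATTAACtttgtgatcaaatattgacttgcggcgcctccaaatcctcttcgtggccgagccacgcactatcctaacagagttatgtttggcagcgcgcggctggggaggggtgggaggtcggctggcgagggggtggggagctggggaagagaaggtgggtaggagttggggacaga
In the Cdx2 window the Foxa motif, read here as its reverse complement GTAAACA, spanned bases -40 to -34 from the start and the Hnf1 half-site bases -30 to -25, with no overlap. The Foxa1 window held the same Foxa motif with its first base at -141. The Hnf4a window held the Hnf1 half-site in reverse complement at -81 to -76 and again at -74 to -69, and the Foxa2 window held it at -176 to -171. The bases after this Hnf4a start were not found in a GENCODE vM21 transcript of the gene, unlike those after the other starts. Its positions therefore rest on the RefSeq entry alone. None of the 5 motifs stood in the windows of Hnf4a start 1, Foxa2 starts 1 and 2, Foxa3 or Isx. A match describes the letters in the window and shows no binding, and the deposited files hold no binding data.

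Levels are given as CPM, the counts of a gene per mega-count of all gene counts in its library. Depth, in mega-counts (M) of reads assigned to genes, was 13.6 to 20.3 M for a library of the adult segments, 28.2 to 31.1 M for adult stem cells, 30.0 to 51.2 M for E13.5 and 31.7 to 38.9 M for E11.5. Id2 itself followed its labels in the embryo, where the wt EpCAM+ libraries of E11.5 had 5310, 5970 and 6600 CPM and the Id2KO ones 160, 159 and 182 CPM. In the adult segments it did not, with 98.9 to 199 CPM in the 6 unselected libraries labelled Id2KO and 64.1 to 125 CPM in the 6 wt libraries. The adult groups are therefore written as labelled Id2KO. Epcam was at 726 CPM or more in every epithelial library and at 7.54 CPM or less in the mesenchyme. Of the 7 leucocyte markers, the Id2KO EpCAM+ libraries held a summed 623, 684 and 3.29 CPM, the wt EpCAM+ libraries 622, 144 and 71.3 CPM and the Id2KO Lgr5+ libraries at most 2.09 CPM, and in these last Ptprc and Cd79b were at 0. The 4 pancreas markers summed to 474 CPM in Id2KO EpCAM+ replicate 2 and to 0.995 CPM or less in the other two libraries of that group, in which Ins2 was at 0 throughout. All samples are small bulk sorts, so fewer cells of a type and less RNA per cell cannot be told apart. The series text calls the replicates biological, and the labels do not say which sorts came from the same animals, so p-values measure the spread between these samples.

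The 8 genes were near 0 in the mesenchyme and detected in all 13 epithelial groups, but over very different ranges. The highest group mean exceeded the lowest 487-fold for Cdx1, 34.9-fold for Cdx2, 26.8-fold for Hnf4a, 23.2-fold for Foxa2, 16.0-fold for Foxa3, 7.38-fold for Foxa1, 6.72-fold for Hnf4g and 3.5-fold for Isx. Cdx1 had its highest mean, 618 CPM, in the posterior segment labelled Id2KO and its lowest, 1.27 CPM, in the E11.5 Id2KO Lgr5+ cells. The 3 libraries of those cells had 0.0606, 0.833 and 2.91 CPM, so the 487-fold range rests on a level near 0. It also spans the difference in depth between the embryonic and the segment libraries. Cdx2 peaked at 83.0 CPM in the posterior wt segment and was lowest, at 2.38 CPM, in the adult stem cell group. These adult sets carry the same cell label but differ in depth, share of reads outside genes and preparation, so the Cdx2 range also spans those differences. Hnf4a ran from 18.1 CPM in E11.5 Id2KO Lgr5+ cells to 485 CPM in the anterior wt segment, and Hnf4g from 50.9 CPM in the same embryonic cells to 342 CPM in the middle wt segment. Foxa1 alone had its peak in the earliest wild-type epithelium, at 287 CPM, and its lowest mean, 38.9 CPM, in the posterior wt segment. Foxa2 peaked at 50.6 CPM in the Id2KO EpCAM+ epithelium of E11.5 and was lowest in E13.5 Lgr5+ cells, at 2.18 CPM. Foxa3 ran from 12.8 CPM in the wt E11.5 epithelium to 205 CPM in the middle segment labelled Id2KO. Isx, the flattest of the 8, ran from 140 CPM in the adult stem cell group to 490 CPM in E13.5 Lgr5+ cells.

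When the 15 groups were ordered by their means, most neighbours in the order overlapped. Of the 14 neighbouring pairs, 7 had separate ranges for Cdx1, 6 for Hnf4a, 5 each for Foxa1 and Foxa3, 4 each for Cdx2, Hnf4g and Isx, and 3 for Foxa2. For the other neighbours the order of the means is within the spread of the libraries. The same counts were not made for genes outside this set. The number of separate pairs therefore singles out none of the genes named here.

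**Figure D1:**
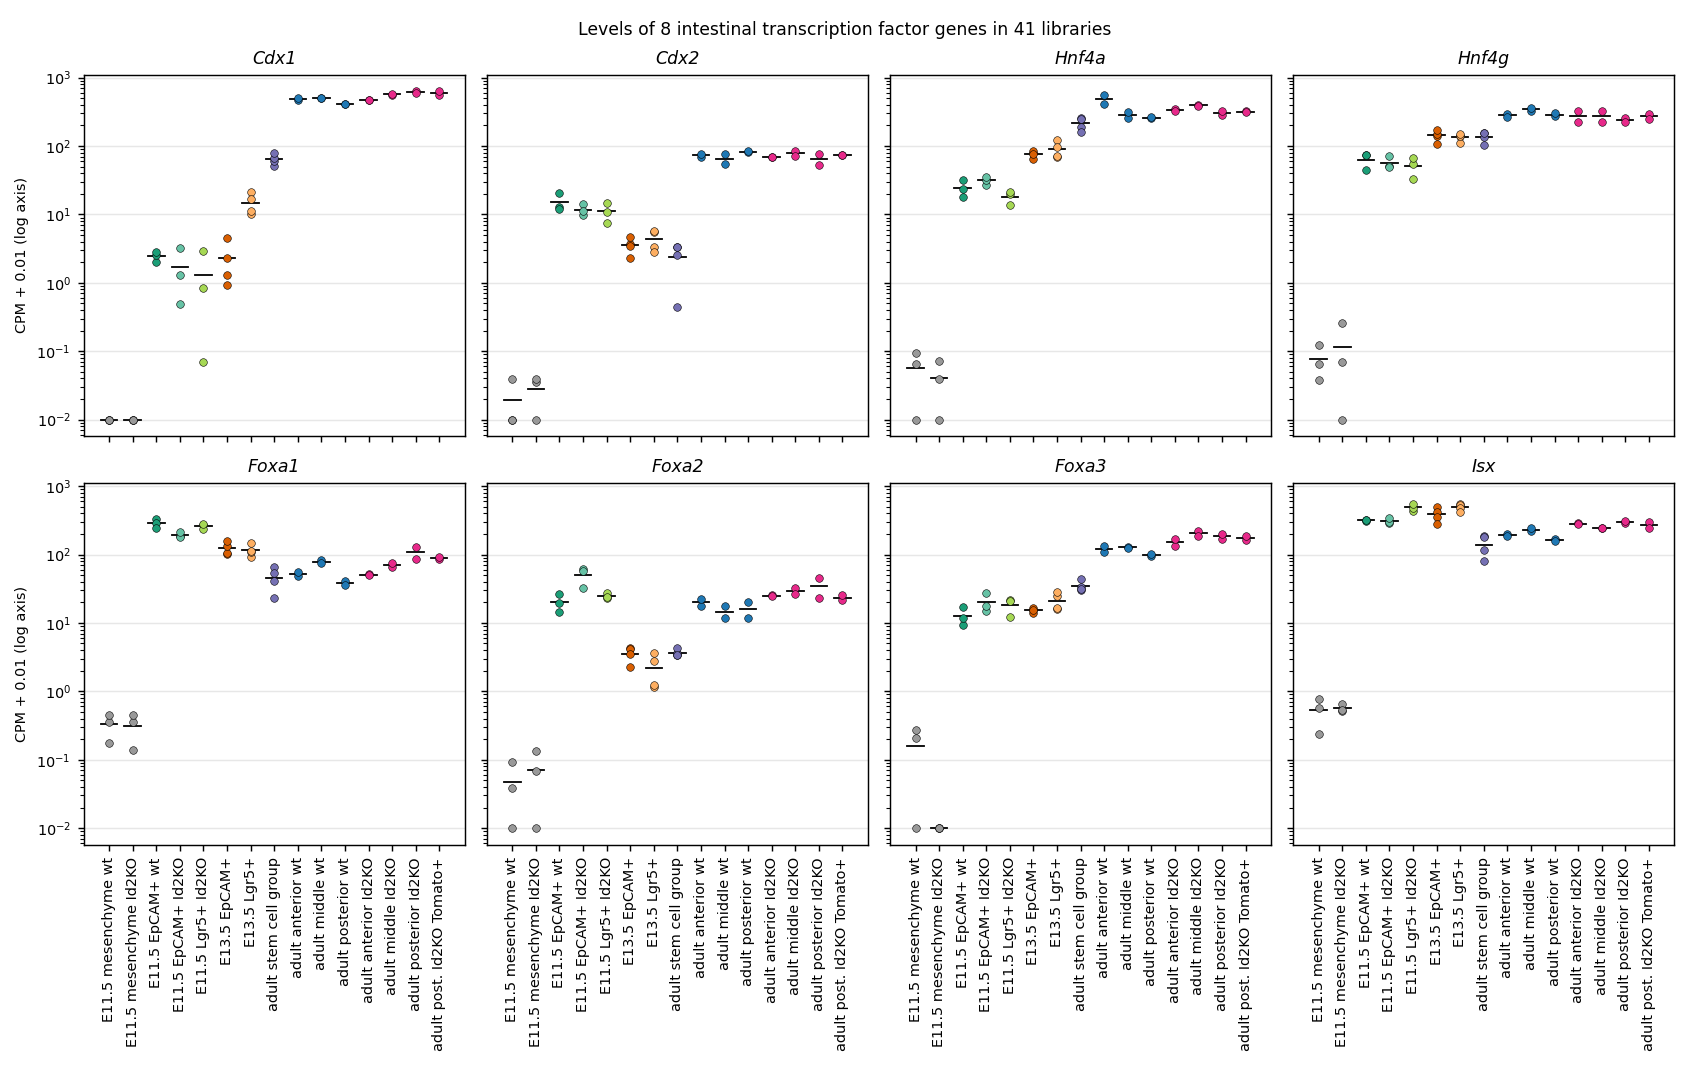
CPM of each of the 8 genes (1 panel per gene, log axis, 0.01 added) in every library of the 15 groups, with bars at the group means. Mesenchymal libraries lie near 0, the adult segments hold the highest Cdx1, Cdx2, Hnf4a, Hnf4g and Foxa3 values, and Foxa1 is highest in wt EpCAM+ cells of E11.5 (246 to 328 CPM).

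Per kilobase of the longest annotated transcript, Isx was the leading gene of the 8 in each embryonic group and in the adult stem cell group, and Cdx1 in each of the 7 segment groups; the same held per kilobase of coding sequence. In the wt E11.5 epithelium the levels per kilobase were 176 CPM for Isx, 89.8 for Foxa1, 27.2 for Hnf4g, 9.51 for Foxa2, 6.72 for Cdx2, 6.26 for Foxa3, 5.62 for Hnf4a and 1.4 for Cdx1. In the anterior wt segment the order began with Cdx1 at 274 CPM per kilobase, Hnf4g at 120, Hnf4a at 111 and Isx at 107, and ended with Foxa2 at 9.38. Cdx1 was thus last of the 8 in the early epithelium and first in the adult segments, and Foxa1 went from second to seventh. Both kinds of length kept those ranks for Cdx1 and Foxa1 in these groups, but not the order of other genes. Per kilobase of coding sequence, Hnf4a in the wt E11.5 epithelium was at 17.6 CPM. That was above Cdx2 (16.3), Foxa2 (14.7) and Foxa3 (12.0). In the anterior wt segment Hnf4g, at 201 CPM per coding kilobase, came after Hnf4a (347) and Isx (266).

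The comparison of wt epithelium with wt mesenchyme at E11.5 asked which genes mark the epithelial sort. All 8 genes were higher in the epithelium, where edgeR's quasi-likelihood test called 11.5% of 15680 genes higher, 10.7% lower and 22.2% in either direction at a Benjamini-Hochberg adjusted p under 0.05. Isx had 318, 310 and 322 CPM in the epithelium and 0.756, 0.229 and 0.559 CPM in the mesenchyme, a log2 fold change of 8.83 ± 0.31 (SE, adjusted p = 3.1e-10, edgeR). Foxa1 had 328, 286 and 246 CPM against 0.168, 0.344 and 0.447 CPM (9.37 ± 0.37, adjusted p = 7.5e-10, edgeR). No epithelial library of either gene came near a mesenchymal one, and the share of all genes with separate ranges was not counted. Hnf4g (9.42 ± 0.71), Hnf4a (8.52 ± 0.7), Foxa2 (8.56 ± 0.78) and Foxa3 (5.92 ± 0.86) rested on 7, 5, 4 and 16 counts summed over the 3 wt mesenchymal libraries. Cdx2 had 1 count there, and Cdx1 none in any of the 6 mesenchymal libraries. Against a floor of 3 counts per library, 0.0846 CPM, Cdx1 was at least 29.0-fold higher in the epithelium. The mesenchymal libraries of wt embryos carried 222000 to 269000 CPM of the 5 red cell markers and those of Id2KO embryos 24700 to 59600 CPM, which lowers every other gene's CPM there; the part of this in the differences was not tested.

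Of the other genes of these programmes, 14 of 18 tested gut transcription factors were higher in the epithelium and none lower. Among genes linked to each family, 6 of 10 Cdx2-linked genes of the intestinal lining rose and 1 fell, 11 of 13 Hnf4-linked absorptive genes rose, and 7 of 9 Foxa-linked genes rose. Only 1 of 5 Isx-linked vitamin A genes rose, Rbp2, a cellular retinol-binding protein, with a mean of 39.0 CPM in the epithelium and 0.0187 CPM in the mesenchyme. Stra6, the membrane receptor for retinol-binding protein, fell, with 0.233 CPM in the epithelium and 13.5 CPM in the mesenchyme.

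Loss of Id2 at E11.5 was accompanied by a higher level of Foxa2 in the EpCAM+ epithelium. The Id2KO libraries had 32.7, 60.9 and 58.1 CPM of Foxa2 and the wt libraries 19.8, 14.2 and 26.8 CPM, so that every Id2KO library lay above every wt library. The difference was 2.54-fold (log2 fold change 1.35 ± 0.29 SE, adjusted p = 0.043, edgeR), in a comparison in which 0.871% of 15153 genes rose, 0.785% fell and 1.66% did either. The call was lost when any of 4 libraries was left out, with adjusted p-values of 0.073 and 0.13 without Id2KO replicates 2 and 3, and 0.15 and 0.19 without wt replicates 1 and 2. It was also lost with the 2 groups fitted alone (adjusted p = 0.12) and without the 3 EpCAM+ libraries that held over 100 CPM of the macrophage gene C1qa (1.54, adjusted p = 0.082). The value itself stayed between 1.14 and 1.64 in all 12 alternatives run. Id2KO replicate 2, the library with pancreas markers at 474 CPM, had the highest Foxa2 level of its group, and without it the log2 fold change was 1.22. The 3 goblet markers Muc2, Spdef and Agr2 gave sums of 67.4, 59.9 and 48.9 CPM for Id2KO beside 11.1, 3.92 and 17.5 CPM for wt, and their part in the Foxa2 difference was not tested.

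The Foxa1 libraries also stood apart, in the other direction, with values of 186, 183 and 212 CPM for Id2KO and 328, 286 and 246 CPM for wt. That difference did not pass the test (log2 fold change -0.52 ± 0.14, adjusted p = 0.099, edgeR), although DESeq2 called it (adjusted p = 0.0071). With 3 against 3 libraries, separate ranges give an exact permutation p of 0.1 at best. How many of all genes had separate ranges here was not counted. Isx had nearly equal values, 289, 294 and 340 CPM for Id2KO beside 318, 310 and 322 CPM for wt (0 ± 0.13). Foxa3 (0.7 ± 0.32), Hnf4a (0.4 ± 0.25), Hnf4g (-0.1 ± 0.29), Cdx2 (-0.34 ± 0.32) and Cdx1 (-0.54 ± 1.1) had adjusted p-values from 0.4 to 0.93. For Cdx1, at 0.486 to 3.24 CPM in these libraries, an SE of 1.1 leaves even a large difference undetectable.

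Among the other genes of the programmes, 5 of 17 gut transcription factors rose in the Id2KO epithelium and none fell, with a median log2 fold change of 0.51 against 0.01 over all genes. Onecut2, a homeodomain factor of the proximal gut, rose by 1.45 ± 0.26 (adjusted p = 0.018, edgeR). Of 8 Foxa-linked genes, Krt8, a keratin of simple epithelia, and Agr2, a protein folding enzyme of goblet cells, rose by 0.72 ± 0.14 and 2.73 ± 0.58. Agr2 is also one of the 3 goblet markers. Krt20, a keratin of differentiated gut cells, was the 1 gene of 10 Cdx2-linked ones that rose (1.82 ± 0.26, adjusted p = 0.005, edgeR). None of 13 Hnf4-linked absorptive genes passed, with a median of 0.31, and none of the 5 Isx-linked genes, with a median of -0.04.

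Within the Id2KO epithelium of E11.5, Lgr5+ cells were compared with all EpCAM+ cells, a comparison that shares the Id2KO EpCAM+ libraries with the one above. Isx was higher in the Lgr5+ cells, at 438, 483 and 543 CPM against 289, 294 and 340 CPM. The ranges did not overlap, and the difference was 1.55-fold (log2 fold change 0.63 ± 0.13, adjusted p = 0.024, edgeR). In this comparison 1.58% of genes rose, 1.56% fell and 3.14% did either. The Isx call was lost in 6 of 12 alternatives, among them the fit of the 2 groups alone (adjusted p = 0.071) and the fit without the 3 libraries with over 100 CPM of C1qa (0.45, adjusted p = 0.23). Leaving out Id2KO EpCAM+ replicate 1 gave an adjusted p of 0.08, and leaving out Lgr5+ replicates 1, 2 and 3 gave 0.056, 0.076 and 0.13.

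Foxa2 had 23.3, 27.6 and 23.6 CPM in the Lgr5+ cells, all below the 3 EpCAM+ values, but the difference did not pass (-1.05 ± 0.29, adjusted p = 0.083, edgeR). DESeq2 called it (adjusted p = 0.013), as did edgeR without EpCAM+ replicate 1 (-1.28, adjusted p = 0.039). Hnf4a had 13.8, 19.7 and 20.9 CPM against 27.2, 32 and 35.1 CPM, also without overlap and without passing (-0.83 ± 0.25, adjusted p = 0.13), although DESeq2 called it (0.047). Foxa1 had 266, 239 and 277 CPM in the Lgr5+ cells (0.39 ± 0.14, adjusted p = 0.18). The share of all genes with separate ranges was not counted in this comparison either, so separation alone does not single these genes out. The remaining 4 genes had log2 fold changes from -0.41 to -0.11.

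The genes around these factors were called in 1 direction only. Of 17 gut transcription factors 4 fell and none rose, led by Onecut2 (-2.79 ± 0.27, adjusted p = 0.00047, edgeR) and Klf5, a Krüppel-like factor of proliferating crypts (-1.35 ± 0.16). Of 13 Hnf4-linked genes 3 fell, with the apolipoprotein genes Apoa1 (-2.81 ± 0.32) and Apoa4 (-1.65 ± 0.3) at the smallest p. Krt20 and Cdh17, an intestinal cadherin, fell among 10 Cdx2-linked genes (-1.31 ± 0.26 and -0.81 ± 0.2), and Krt8 and Agr2 among 8 Foxa-linked genes. No Isx-linked gene was called. The medians of the 5 lists were -0.19, -0.76, -0.91, -1.03 and -0.44 in the order gut factors, Cdx2, Hnf4, Foxa and Isx, against -0.01 over all genes. The 8 mesenchyme markers summed to 600 to 712 CPM in the Lgr5+ and 52.8 to 154 CPM in the EpCAM+ libraries, and the leucocyte markers to at most 2.09 CPM against up to 684 CPM. The 3 goblet markers, Agr2 among them, summed to 7.87 to 10.5 CPM against 48.9 to 67.4 CPM, and the 4 pancreas markers to at most 0.575 CPM against up to 474 CPM. The part of these markers in the differences was not tested.

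At E13.5 the same sort, in embryos with no knockout named, found Cdx1 higher in the Lgr5+ cells. Cdx1 had 21.5, 16.7, 10.2 and 11.1 CPM in the Lgr5+ libraries and 2.28, 4.57, 0.933 and 1.31 CPM in the EpCAM+ libraries. The lowest Lgr5+ library was above the highest EpCAM+ library, and the difference was 6.65-fold (log2 fold change 2.73 ± 0.47, adjusted p = 0.0072, edgeR). Only 0.794% of 13355 genes rose in the Lgr5+ cells, 0.958% fell and 1.75% did either. The share of genes with separate ranges was not counted in this comparison. The Cdx1 call held in each of the 12 alternatives run, with adjusted p-values from 4.8e-07 to 0.031. Lgr5, on which the cells were sorted, was at 83.6 to 94.7 CPM in the Lgr5+ and 21.4 to 24.8 CPM in the EpCAM+ libraries.

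Cdx2, the paralogue of Cdx1, was not called. It had 5.55, 5.7, 3.38 and 2.81 CPM in the Lgr5+ cells and 3.68, 4.69, 2.27 and 3.49 CPM in the EpCAM+ cells, with overlapping ranges (0.32 ± 0.43, adjusted p = 0.93, edgeR). Isx had 544, 524, 478 and 413 CPM against 500, 416, 355 and 276 CPM, again with overlap (0.35 ± 0.17, adjusted p = 0.56). Hnf4a (0.26 ± 0.18), Hnf4g (-0.07 ± 0.18), Foxa1 (-0.09 ± 0.2), Foxa2 (-0.68 ± 0.57) and Foxa3 (0.47 ± 0.23) did not pass either.

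Although neither Hnf4 gene was called, 5 of 13 Hnf4-linked absorptive genes fell in the E13.5 Lgr5+ cells and none rose, with a median of -1.07. The smallest p-values were those of Apoa1 (-2.22 ± 0.18, adjusted p = 4.3e-05, edgeR) and Fabp2, the intestinal fatty acid-binding protein (-1.77 ± 0.21). Of 11 Cdx2-linked genes 3 rose and none fell, among them the brush-border protease Mep1a (2.11 ± 0.27, adjusted p = 0.00097) and Guca2a, the peptide guanylin (3.36 ± 0.54), while the median was 0.05. Among 18 gut transcription factors Klf4, a factor of goblet cells, rose (1.03 ± 0.23), and Gata4, a zinc finger factor of the proximal intestine, and Onecut2 fell (-2.88 ± 0.28 and -4.03 ± 0.45). Rbp2 fell among the 5 Isx-linked genes (-2.05 ± 0.31), and none of 7 Foxa-linked genes was called. The mesenchyme markers summed to 331 to 475 CPM in the Lgr5+ and 83.9 to 164 CPM in the EpCAM+ libraries, so that the same direction of these markers went with the Lgr5 sort as at E11.5, and their part was not tested.

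From E11.5 to E13.5 both Hnf4 genes rose in the EpCAM+ epithelium, and Cdx2, Foxa1 and Foxa2 fell. This comparison reuses the wt E11.5 and the E13.5 EpCAM+ libraries, and 19.3% of 14467 genes rose, 21.1% fell and 40.4% did either, so a called gene is common in it. Hnf4a rose 3.54-fold, from 32, 18.2 and 23.3 CPM to 78.7, 83.3, 63.8 and 76.5 CPM (log2 fold change 1.82 ± 0.21, adjusted p = 2.6e-05, edgeR). Hnf4g rose 2.6-fold, from 72.7, 44 and 72.9 CPM to 138, 107, 152 and 174 CPM (1.38 ± 0.24, adjusted p = 0.00061). For both receptors every E13.5 library exceeded every E11.5 library.

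Foxa2 had 19.8, 14.2 and 26.8 CPM at E11.5 and 4.29, 4.15, 2.27 and 3.46 CPM at E13.5, and was 5.03-fold lower (-2.33 ± 0.35, adjusted p = 0.00019, edgeR). Cdx2 had 20.5, 13 and 12.1 CPM at E11.5 and 3.68, 4.69, 2.27 and 3.49 CPM at E13.5, and was 3.75-fold lower (-1.91 ± 0.35, adjusted p = 0.00096). Foxa1 had 328, 286 and 246 CPM at E11.5 and 101, 105, 131 and 160 CPM at E13.5, and was 1.99-fold lower (-1 ± 0.19, adjusted p = 0.0013). No E13.5 library of the 3 genes reached the E11.5 range. How many of all genes had separate ranges between the stages was not counted. Separation alone therefore singles out neither these 3 genes nor the Hnf4 genes.

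Cdx1 did not differ detectably, at 1.99, 2.54 and 2.84 CPM at E11.5 and 0.933 to 4.57 CPM at E13.5 (0.05 ± 0.72, adjusted p = 0.97, edgeR). Isx (0.48 ± 0.19, adjusted p = 0.054) and Foxa3 (0.47 ± 0.27, adjusted p = 0.2) did not pass, although DESeq2 called Isx (0.029), as did edgeR without E13.5 replicate 4 (0.61, adjusted p = 0.012). The 5 called genes held in all 11 alternatives. Age, the pooling of embryos and any difference in preparation cannot be told apart here. Markers of other cells were lower at E13.5, where the red cell markers summed to 4.37 to 11.2 CPM against 133 to 170 CPM, the leucocyte markers to 2.72 to 4.77 CPM with C1qa at 0 against 71.3 to 622 CPM, and the mesenchyme markers to 83.9 to 164 CPM against 205 to 241 CPM. Their part in the differences was not tested. Across genes, the log2 fold change ran against the GC content of the longest transcript (Spearman's rho -0.3, a description over genes of the same libraries). Cdx2 and Foxa2, which fell, have 57.5% and 57.0% GC and Hnf4g, which rose, has 41.5%; Hnf4a, which rose, has 53.7% and Foxa1, which fell, 54.2%. The part of base composition in these differences was not tested.

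Genes linked to Cdx2 mostly rose between the stages while Cdx2 itself fell. Of 11 tested, 7 rose and none fell, with a median of 1.54 against -0.04 over all genes, led by Cdh17 (3.81 ± 0.19, adjusted p = 3.1e-08, edgeR) and Gpa33, a surface antigen of the intestinal lining (5.20 ± 0.37). Of 18 gut transcription factors 9 rose, led by Tcf7l2, the Wnt effector (2.40 ± 0.17), and Sox9, a progenitor factor (2.38 ± 0.18), and 2 fell, Klf5 (-1.19 ± 0.17) and Klf4 (-1.06 ± 0.23). Of 13 Hnf4-linked genes 5 rose, with Fabp2 (2.10 ± 0.26) and Fabp1 (2.14 ± 0.27) first, and 2 fell, Apoa1 (-0.68 ± 0.18) and Apoa4 (-1.15 ± 0.42), with a median of 0.56. Of 7 Foxa-linked genes 2 rose, Cdh1, the epithelial cadherin (1.39 ± 0.15), and Agr2 (2.15 ± 0.62), and 3 fell, led by Krt8 (-2.17 ± 0.15) and Krt18 (-1 ± 0.16), with a median of -0.28. Rbp2 fell among the 5 Isx-linked genes (-1.20 ± 0.23), whose median was 0.49.

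The adult stem cell group was compared with E13.5 Lgr5+ cells, which also enter the E13.5 comparison. Age, the sort gate, the pooling of embryos and any difference in preparation cannot be told apart here. Cdx1 was higher in the adult, at 51.4, 59.4, 66.5 and 79.8 CPM against 21.5, 16.7, 10.2 and 11.1 CPM, a 4.59-fold difference (log2 fold change 2.2 ± 0.27, adjusted p = 6e-05, edgeR). Hnf4a was 2.51-fold higher, at 188, 158, 260 and 247 CPM against 122, 95.9, 69.6 and 71.2 CPM (1.33 ± 0.21, adjusted p = 0.00033). Every adult library of both genes exceeded every E13.5 library, in a comparison where 18.6% of 13144 genes rose, 17.3% fell and 35.9% did either.

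Isx and Foxa1 were lower in the adult. Isx had 79.9 to 185 CPM in the 4 adult libraries against 544, 524, 478 and 413 CPM and was 3.35-fold lower (-1.74 ± 0.22, adjusted p = 7.7e-05, edgeR). Foxa1 had 64.9, 53, 23.5 and 41.5 CPM against 148, 91.3, 110 and 114 CPM and was 2.38-fold lower (-1.25 ± 0.29, adjusted p = 0.0053). Neither gene's ranges overlapped.

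Foxa3 was 1.75-fold higher, at 30.1, 33.9, 44.3 and 31.2 CPM against 24.4, 28.3, 15.9 and 16.3 CPM (0.81 ± 0.26, adjusted p = 0.031, edgeR). Its ranges were separate, yet the call was lost without any of 4 single libraries (adjusted p up to 0.097). Cdx2 had 0.426, 3.28, 3.28 and 2.53 CPM in the adult libraries and 2.81 to 5.7 CPM at E13.5, and did not pass (-0.77 ± 0.71, adjusted p = 0.44). Foxa2 (0.83 ± 0.66) and Hnf4g (0.11 ± 0.19) did not pass. The wt adult segments, described below, had 54 to 83.1 CPM of Cdx2 and 268 to 363 CPM of Hnf4g. The result for these genes therefore depends on which adult set is used.

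Absorptive genes linked to Hnf4 rose together in this comparison, 12 of 14 with none falling and a median of 2.52 against 0.02 over all genes. The sodium-glucose transporter Slc5a1 (2.31 ± 0.27, adjusted p = 4.2e-05, edgeR) and Mttp, which loads lipoproteins with lipid (2.20 ± 0.29), had the smallest p. Of 18 gut transcription factors 9 rose and none fell, led by the epithelial Ets factor Ehf (4.14 ± 0.24), with a median of 0.63. Of 12 Cdx2-linked genes 6 rose, with Gpa33 (1.70 ± 0.22) and Vil1, the actin bundler of microvilli (1.12 ± 0.17), first, while Mep1a fell (-1.86 ± 0.34) and the median was 1.41. Of 8 Foxa-linked genes 5 rose, led by Krt8 (2.36 ± 0.17) and Agr2 (4.85 ± 0.38), and the signalling ligand Shh fell, from a mean of 137 CPM to 0.205 CPM, with a median of 1.53 for the list. Of 4 Isx-linked genes, Lrat, which esterifies retinol, rose from a mean of 1.08 to 30.6 CPM, and Rbp2 rose from 3.54 to 104 CPM with a range of 0.71 to 363 CPM in the adult. Scarb1, a scavenger receptor that takes up carotenoids, fell from 13.2 to 0.319 CPM. Goblet markers summed to 223 to 407 CPM in the adult and 5.44 to 17.2 CPM at E13.5, with Agr2 in both lists, and mesenchyme markers to 0.707 to 2.38 CPM and 331 to 475 CPM, and their part was not tested.

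**Figure D2:**
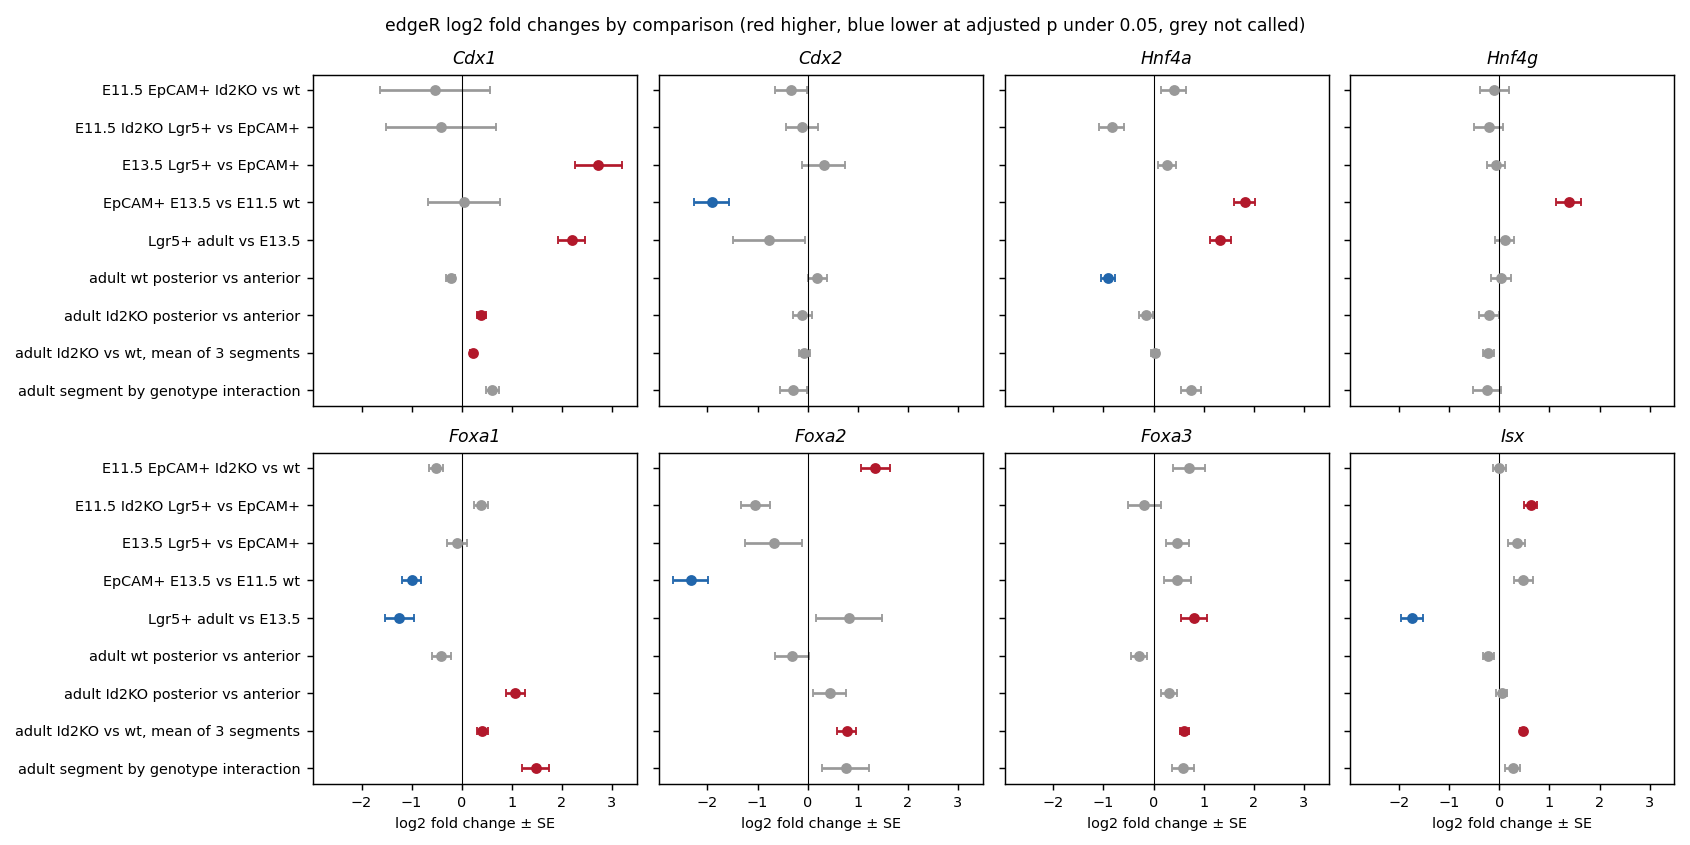
Log2 fold changes of the 8 genes (points, with bars of 1 SE) in 9 comparisons, red for called higher, blue for called lower and grey for not called at an adjusted p under 0.05. The bars of the called points stay clear of 0. Among these points are Cdx1 in the E13.5 Lgr5 sort (2.73) and the Isx fall in adult stem cells (-1.74). The Hnf4a rise (1.82) and Foxa2 fall (-2.33) between embryonic stages are others.

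The adult stem cell group and the adult segments carry the same cell label but differed in the level of several of the genes. All 4 stem cell libraries lay below all 6 wt segment libraries for Cdx2 (0.426 to 3.28 against 54 to 83.1 CPM), Cdx1 (51.4 to 79.8 against 404 to 510 CPM), Foxa2 (3.34 to 4.34 against 11.8 to 22.3 CPM), Foxa3 (30.1 to 44.3 CPM against 95.8 CPM or more) and Hnf4g (104 to 156 against 268 to 363 CPM). The means were 31.0-fold, 7.24-fold, 4.58-fold, 3.32-fold and 2.2-fold lower in that order. Hnf4a (1.61-fold), Isx (1.4-fold) and Foxa1 (1.23-fold) overlapped. Of 10856 genes at 5 CPM or more, 53.7% had groups that did not overlap, so separation alone is common, and the median log2 ratio over genes was -0.37.

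Across those genes the ratio fell with GC content (Spearman's rho -0.32, over genes of the same libraries). The median log2 ratio was 0.24 in the decile of genes lowest in GC, from 32.9% to 41.7%, and -1.36 in the highest decile, from 57.8% to 72.8%. Cdx1, with 62.1% GC at the 98.8 percentile of genes, had a log2 ratio of -2.85, and Cdx2, with 57.5%, had -4.69. Foxa1 and Foxa3 have similar GC, 54.2% and 54.4%, and ratios of -0.3 and -1.72. The depth was 13.6 to 20.3 M in the segments, with 7.12% to 9.35% of reads outside genes, and 28.2 to 31.1 M in the stem cell libraries, with 23.25% to 30.97%. Depth, share of reads outside genes and preparation differ with the set, no test was made between the sets, and the part of base composition was not tested.

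**Figure D3:**
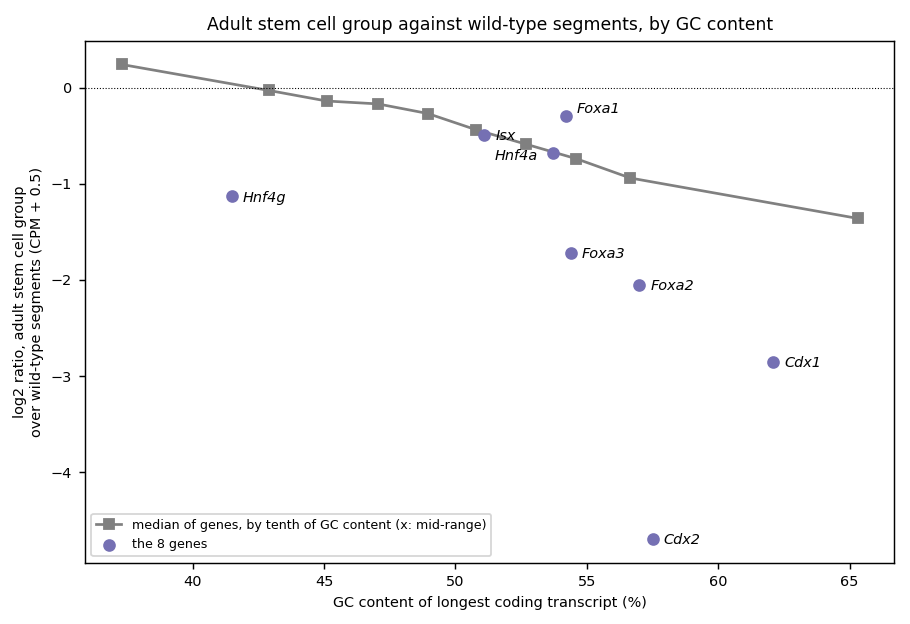
Log2 ratio of mean CPM (0.5 added) in the adult stem cell group over the wt segments (y axis) against GC percent of each gene's longest coding transcript (x axis), with the 8 genes named and grey squares at the median of each decile of genes by GC. The medians run from 0.24 to -1.36, and Cdx2 (-4.69) lies farthest below them.

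Along the wt adult intestine, Hnf4a was lower in the posterior than in the anterior segment. It had 411 and 558 CPM in the anterior, 258 and 309 CPM in the middle and 258 and 261 CPM in the posterior libraries, so that the anterior stood apart from the other two. The share of all genes with such separate ranges was not counted. The posterior level was 1.86-fold lower (log2 fold change -0.9 ± 0.14, adjusted p = 0.0095, edgeR), in a comparison in which 1.78% of 13436 genes rose, 3.03% fell and 4.81% did either. With 2 libraries a group, the spread was shared over all 7 segment groups; with the 2 groups alone the adjusted p was 0.064. Without posterior replicate 1 or 2 or anterior replicate 2 it was 0.051, 0.055 and 0.07. Across genes the log2 fold change had a rho of -0.22 with GC content.

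No other member passed in the wt intestine. Cdx1 had 463 and 496 CPM in the anterior and 404 and 415 CPM in the posterior libraries (-0.22 ± 0.09, adjusted p = 0.16, edgeR). Cdx2 had 69.8 and 76.7 CPM in the anterior and 82.8 and 83.1 CPM in the posterior libraries (0.19, not called). Foxa1 (-0.41 ± 0.19), Isx (-0.22 ± 0.11) and Foxa3 (-0.29 ± 0.16) had adjusted p-values of 0.22 to 0.29. Of the listed genes only Vdr, the vitamin D receptor, was called (-0.77 ± 0.19), 1 of 19 gut transcription factors. None of the 12 Cdx2-linked, 15 Hnf4-linked, 8 Foxa-linked and 5 Isx-linked genes was.

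In the segments labelled Id2KO, Foxa1 was higher in the posterior. It had 51.1 and 50.8 CPM in the anterior, 66.1 and 75.7 CPM in the middle and 85.4 and 130 CPM in the posterior libraries, each segment above the one before it. The share of all genes with such an order was not counted. The posterior level was 2.1-fold higher than the anterior (log2 fold change 1.07 ± 0.19, adjusted p = 0.0083, edgeR), where 1.03% of genes rose, 0.968% fell and 2% did either. In wt the corresponding values were 47.9 and 55.9 CPM, 82.2 and 74.4 CPM, and 41.6 and 36.3 CPM. The difference between the posterior-to-anterior changes of the 2 genotypes was 1.48 ± 0.27 for Foxa1 (adjusted p = 0.044), with 0.149% of genes called higher, 0.171% lower and 0.32% in either direction in this interaction. The interaction call was lost without any of 6 single libraries (adjusted p up to 0.16), and the change within labelled Id2KO was lost with the 2 groups alone (0.066) and without posterior replicate 1 (0.73, adjusted p = 0.11) or either anterior library (0.062 and 0.083).

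Cdx1 was also called higher in the posterior of labelled Id2KO intestines, at 637 and 599 CPM against 469 and 469 CPM (0.39 ± 0.09, adjusted p = 0.04, edgeR). That call was lost without any 1 of the 4 libraries (0.11 to 0.27), with the 2 groups alone (0.2) and with no filter on low counts (0.07). Its interaction did not pass (0.61 ± 0.13, adjusted p = 0.06), nor did that of Hnf4a (0.75 ± 0.2, adjusted p = 0.12), by edgeR as fitted here. Both interactions were called by DESeq2 (adjusted p = 0.00018 for Cdx1 and 0.02 for Hnf4a), by edgeR with no filter on low counts (0.03 and 0.0066) and without anterior wt replicate 1 (0.039 and 0.03). The goblet markers summed to 1540 and 1710 CPM in the posterior and to 175 and 1630 CPM in the anterior labelled Id2KO libraries, against 161 and 198 CPM and 352 and 379 CPM in the same wt segments. The part of goblet cells in the Foxa1 difference was not tested.

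Of the genes listed around the factors, 3 of 19 gut transcription factors fell from anterior to posterior in labelled Id2KO, with Gata4 (-2.07 ± 0.34) and Onecut2 (-5.74 ± 0.98) at the smallest p. Mttp fell among 15 Hnf4-linked genes (-1.52 ± 0.3), Scarb1 among 5 Isx-linked genes (-1.63 ± 0.34), and Krt18 rose among 8 Foxa-linked genes (0.52 ± 0.12). None of the 12 Cdx2-linked genes was called. No listed gene was called in the interaction.

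Selection for Tomato among posterior Lgr5+ cells labelled Id2KO was followed by no call among the 8 genes. Their log2 fold changes ran from -0.54 for Foxa2 to 0.19, all at an adjusted p of 1. By edgeR 0% of the 13436 genes were called, 358 had an unadjusted p under 0.05, DESeq2 called 1 gene and edgeR with no filter 66.

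**Figure D4:**
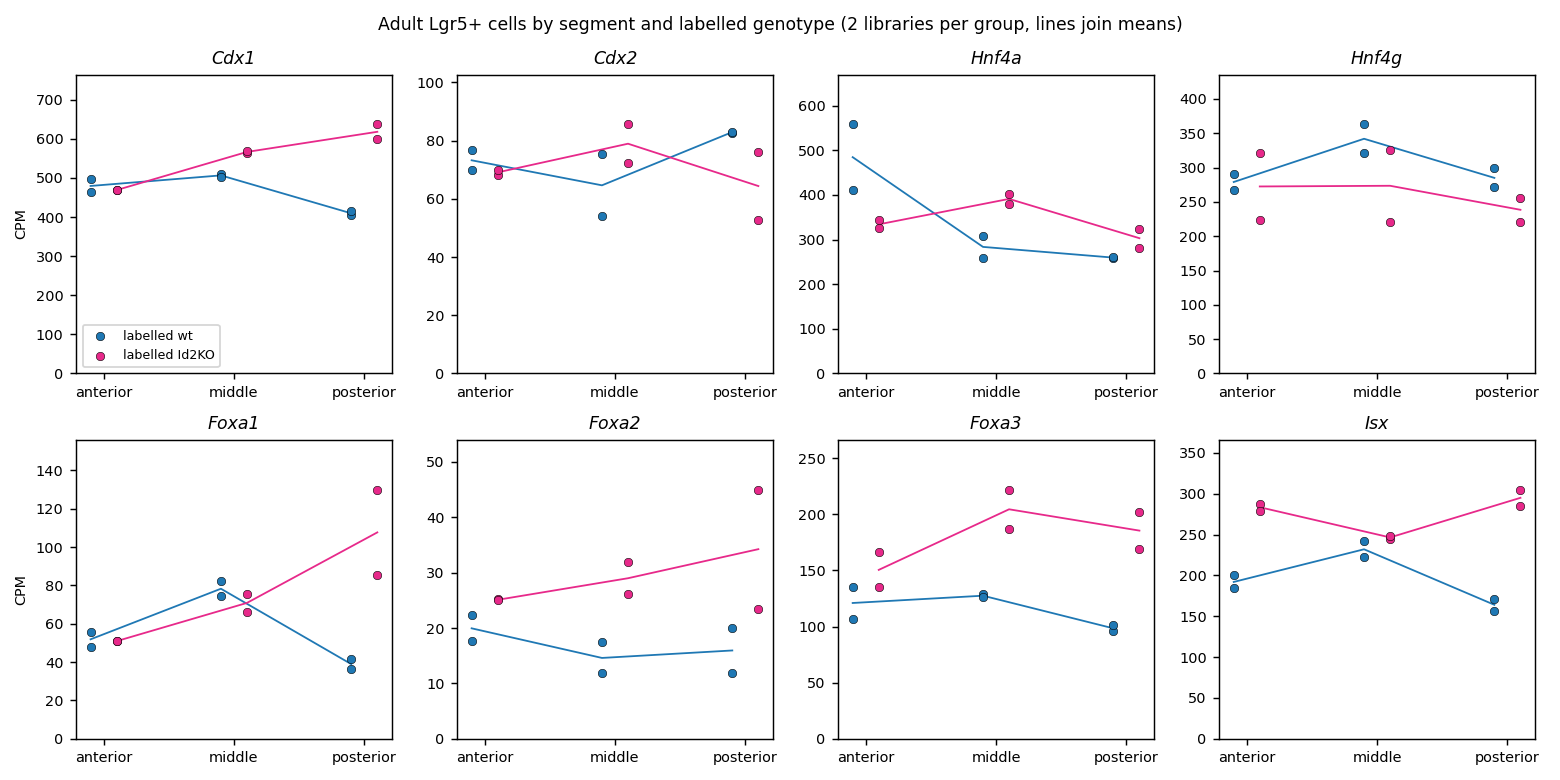
CPM of the 8 genes (1 panel each) in the 12 adult segment libraries without Tomato selection, by segment, wt in blue and labelled Id2KO in pink with lines joining the means. Foxa1 reaches 85.4 and 130 CPM in the posterior of labelled Id2KO and is at 41.6 and 36.3 CPM in wt, and the 6 labelled Id2KO points of Foxa2 and of Isx lie above the 6 wt points.

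Over the mean of the 3 segments, 5 of the 8 genes were higher in the libraries labelled Id2KO, where 3.71% of genes rose, 4.03% fell and 7.75% did either. Isx had 245 to 305 CPM (median 282) in the 6 labelled Id2KO libraries and 157 to 242 CPM (median 192) in the 6 wt libraries, with no overlap. The difference was 1.39-fold (log2 fold change 0.48 ± 0.06, adjusted p = 0.00047, edgeR). Foxa3 had up to 222 CPM (median 178) in the first and as little as 95.8 CPM (median 116) in the second, ranges that met where the lowest labelled Id2KO and the highest wt library lay, and was 1.53-fold higher (0.61 ± 0.09, adjusted p = 0.0011). Both calls held in all 17 alternatives. Whether same-numbered segment libraries came from the same animal is not given, so the 6 libraries of a genotype may not be independent.

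Foxa2 had 23.5 to 45 CPM (median 25.6) against 11.8 to 22.3 CPM (median 17.5), again with no overlap, and was 1.72-fold higher (0.78 ± 0.19, adjusted p = 0.027, edgeR). Of 10122 genes averaging 5 CPM or more, 2.94% had ranges apart in these 12 libraries. Foxa1 (0.41 ± 0.11, adjusted p = 0.035) and Cdx1 (0.22 ± 0.05, adjusted p = 0.019) were called with overlapping ranges. The calls of Foxa1, Foxa2 and Cdx1 were lost in 9, 7 and 2 of the 17 alternatives, at adjusted p-values of up to 0.094, 0.091 and 0.051. Hnf4a (0.03), Cdx2 (-0.07) and Hnf4g (-0.22 ± 0.11, adjusted p = 0.28) were not called.

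The labels are the only ground for calling these genotypes different, since Id2 was not lower in the libraries labelled Id2KO. Of 19 gut transcription factors Elf3, an epithelial Ets factor, and Sox9 rose (0.20 ± 0.05 and 0.37 ± 0.1) and Klf5 fell (-0.25 ± 0.06). Spdef, the goblet cell factor and also a goblet marker, rose among 8 Foxa-linked genes (2.14 ± 0.53, adjusted p = 0.042, edgeR), and Mep1a fell among 12 Cdx2-linked genes (-0.83 ± 0.2). None of 15 Hnf4-linked or 5 Isx-linked genes was called, and the medians of the 2 lists were 0.01 and 0.44. The goblet markers summed to 569 and 1000 CPM in the middle labelled Id2KO libraries and 635 and 784 CPM in the middle wt libraries, and to 1540 and 1710 CPM against 161 and 198 CPM in the posterior. Foxa3 had 222 and 187 CPM against 129 and 126 CPM in the middle and 169 and 202 CPM against 95.8 and 101 CPM in the posterior libraries. In the middle segment the 3 enteroendocrine markers summed to 84.2 to 149 CPM in labelled Id2KO and 17.1 to 20.5 CPM in wt. The 3 Paneth markers summed there to 16.1 to 23.3 CPM in labelled Id2KO and 599 to 914 CPM in wt. Both sums overlapped between the labels in the anterior and posterior segments. The part of goblet, enteroendocrine and Paneth cells in these differences was not tested.

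Ratios between paralogues put 2 counts of the same library side by side and so do not depend on its scaling. The log2 ratio of Cdx1 to Cdx2 counts was -2.6 ± 0.67 (SD, n = 3) in the wt E11.5 epithelium, -0.85 ± 0.62 (n = 4) in the E13.5 EpCAM+ cells, 1.77 ± 0.23 (n = 4) in the E13.5 Lgr5+ cells and 5.08 ± 1.23 (n = 4) in the adult stem cell group. In the adult segments the group means lay between 2.3 and 3.29. In the Id2KO embryos of E11.5 the ratio was -3.16 ± 1.08 in EpCAM+ and -4.21 ± 2.37 in Lgr5+ cells (n = 3 each). Cdx2 counts exceeded Cdx1 counts in each E11.5 and E13.5 EpCAM+ library, and Cdx1 exceeded Cdx2 in each Lgr5+ library from E13.5 on.

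The ratio of Hnf4g to Hnf4a counts went from 1.37 in the wt E11.5 epithelium to 0.9 in the E13.5 epithelium, 0.62 ± 0.48 in E13.5 Lgr5+ cells and -0.62 ± 0.42 in the adult stem cell group. Along the wt segments it was -0.78 in the anterior, 0.27 in the middle and 0.13 in the posterior segment, with the 2 anterior libraries at -1.06 and -0.51 below the other 4. The ratio of Foxa1 to Foxa2 was 3.86 ± 0.59 in wt and 1.99 ± 0.47 in Id2KO epithelium at E11.5, with no overlap, 5.88 ± 0.64 in E13.5 Lgr5+ cells and 3.54 ± 0.78 in the adult stem cell group. The ratio of Foxa3 to Foxa2 was -0.66 ± 0.49 in the EpCAM+ cells at E11.5 and 2.15 ± 0.34 at E13.5, below and above 0.

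Of 20 exact two-sided permutation tests of such ratios, 4 pairs in 5 comparisons, none passed after Benjamini-Hochberg adjustment. The smallest adjusted p was 0.095, reached by the Cdx1 to Cdx2 ratio in the E13.5 sort, between the stages and between adult and E13.5 Lgr5+ cells, by the Foxa3 to Foxa2 ratio between the stages, and by the Hnf4g to Hnf4a and Foxa1 to Foxa2 ratios between adult and E13.5 Lgr5+ cells. In each of these the unadjusted p was 0.029, the smallest that 4 libraries against 3 or 4 can give. For the Foxa1 to Foxa2 ratio between Id2KO and wt the exact p was 0.1, the smallest that 3 against 3 can give, and the adjusted p was 0.17. The tests of 3 against 3 libraries could therefore not pass. The others could pass the adjustment over 20 tests only if all of them reached 0.029. The lack of a pass thus says little about the ratios.

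**Figure D5:**
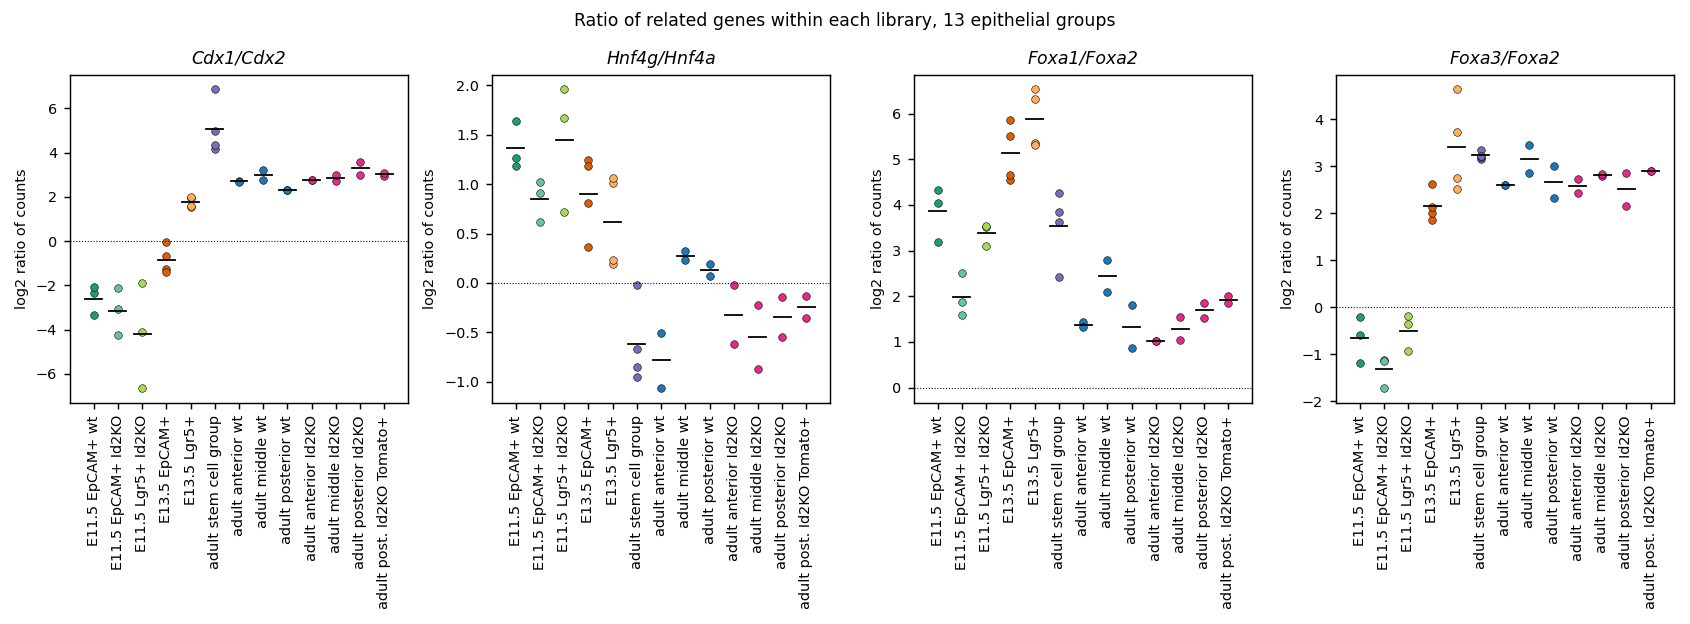
Log2 ratios of counts for 4 paralogue pairs (0.5 added to each count) in every library of the 13 epithelial groups, 1 panel per pair, with the line at 0 marking equal counts. The mean of Cdx1 to Cdx2 runs from -4.21 in E11.5 Id2KO Lgr5+ cells, with -2.6 in wt E11.5 epithelium, to 5.08 in adult stem cells. Foxa1 to Foxa2 stays above 0 in all groups.

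Across the 15 group means of log2(CPM + 1), the mesenchymal groups included, the genes most like each member among 10318 compared are given as descriptions with Pearson's r over 15 groups that share libraries' depth and preparation. Cdx1 was nearest to 8430419L09Rik and Nr1h3 (both 0.992) and Tmem63a (0.991), and Cdx2 to Rps6ka1 (0.984), Gal3st1 and Klf5 (both 0.978). Among the nearest 3 to Hnf4a were Elf3 (0.992) and Atp8b1 (0.991), and Hnf4g was nearest to Gucy2c (0.997), Elmo3 and Cdh1 (both 0.992). Foxa1 was nearest to Cldn23 (0.993) and Kif12 (0.98), Foxa2 to Sfrp5 (0.963), Atp2c2 (0.959) and Stard10 (0.958), and Foxa3 to Usp43 (0.99), Faah (0.989) and Cdhr5 (0.987). Isx was nearest to Kif12 (0.993), Crb3 (0.988) and Ccdc125 (0.985). Kif12 stood among the nearest 3 of both Foxa1 and Isx, and Isx itself was the 11th nearest to Foxa1 (0.966). Between paralogues r was 0.972 for Hnf4a and Hnf4g, 0.855 for Cdx1 and Cdx2 and 0.762 for Foxa1 and Foxa2. The near 0 mesenchymal groups raise r for any pair of epithelial genes.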

How the data were processed

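Poly(A) RNA of 250 sorted cells was amplified over 15 cycles, per the labels' protocols, and read as single ends of 50 bp. The deposited files hold raw counts per gene, as whole numbers. Per the submitters' processing notes, the tools were HTSeq 0.6.1p1, STAR 2.3.1z13, DESeq2 1.6.3, bcl2fastq 1.8.4 and SAMtools 1.2, and the build was mm9. The roles of these tools, the annotation and the strand setting are not given in the sources used here, so reads shared by overlapping genes cannot be told apart. The 5 category rows were left out of library sizes. No 2 replicates of a group were duplicates: 40 pairs differed beyond sampling noise (chi-square per degree of freedom 22.9 to 229.8).

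CPM used the sum of gene counts. Differences were tested with edgeR 4.0.16 (R 4.3.3: filterByExpr by group, TMM, robust quasi-likelihood fit, Benjamini-Hochberg over all genes tested, called under 0.05). The log2 fold changes given are edgeR's shrunken values. The SE is the unshrunken log2 fold change, without its sign, divided by the square root of F. The shrunken and unshrunken values part where counts are near 0, as in the mesenchyme. The fits held the 3 epithelial E11.5 groups, 4 groups with both mesenchymes, all 7 segment groups, or the compared groups. The script was tested on simulated data. Alternatives were RLE size factors, DESeq2 1.42.0, no filter, a replicate block, compared groups alone and leaving out each library. The fit without libraries over 100 CPM of C1qa was chosen after seeing the data. Python 3.11.15 with pandas 2.3.3, scipy 1.17.1 and matplotlib 3.10.9 gave ratios (0.5 added), exact permutation tests and figures.

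Of the comparisons with 3 or 4 libraries a group, only E11.5 Id2KO Lgr5+ against EpCAM+ cells had every same-numbered pair correlated above 0.1 (0.26, 0.34 and 0.16). Same-numbered labelled Id2KO segments correlated at 0.17 between posterior and anterior, 0.13 between anterior and middle and 0.06 between middle and posterior. With 2 libraries a group both pairs give the same value. Any pairing here is read from the data, not the labels. The 8 genes, the gene lists and the markers were chosen with earlier results of these data known. Named were the 8 genes, up to 2 called rises and 2 called falls of smallest p per list and comparison, and the 3 genes nearest each member among genes at 20 CPM or more in a group; some of the genes these rules name are not reported here. Transcript lengths and GC content came from GENCODE vM21, which matched 88.8% to 90.3% of tested genes. That build differs from mm9, so the only coordinates given are those of the RefSeq promoter windows, on GRCm38.p6.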

Additional observations from a re-analysis of the deposited data

Results flagged for a closer look

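Foxa1 was the one member whose effect differed between groups by a test of the difference itself in the fit as reported. Its change from the anterior to the posterior segment was 1.48 larger on the log2 scale in the adult segments labelled Id2KO than in wt (SE 0.27, adjusted p = 0.044, edgeR's quasi-likelihood test, n = 2 in each of 4 groups). The call was lost in 7 of 12 alternatives, with the replicate block at 0.051 and without each of 6 single libraries at up to 0.16. The same interaction of Cdx1 (0.61) and Hnf4a (0.75) was not called as reported but was called by DESeq2 (0.00018 and 0.02) and with no filter (0.03 and 0.0066). Both posterior labelled Id2KO libraries (85.4 and 130 CPM) lay above both anterior ones (51.1 and 50.8 CPM), and both posterior wt libraries (41.6 and 36.3 CPM) below both anterior ones (47.9 and 55.9 CPM). Id2 was not lower in the libraries labelled Id2KO, and the posterior goblet marker sums differed between the labels (1540 and 1710 against 161 and 198 CPM); neither was tested as a cause. Levels and paralogue ratios were also checked for a single library far from the rest, in 36 sets of 4 values, and 0 were found.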

How the results depend on the processing

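Of 30 calls made among the 8 genes, 20 held in every alternative run for them, 10 were lost in at least 1 and 0 reversed. Over 1008 alternative values, 896 kept direction and side of the threshold, 56 lost the call, 13 gained one and 43 changed sign, all 43 in genes that were not called. Outside single left-out libraries, the sign changes were Isx between Id2KO and wt EpCAM+ cells of E11.5, at -0.02 with RLE size factors and with DESeq2, 0 with the block and -0.01 with the groups alone, and Hnf4g there, at 0.33 without the 3 libraries rich in C1qa. The counts of called genes moved more. For Id2KO against wt at E11.5 (251 genes) DESeq2 called 727 and the groups alone 119, for Lgr5+ against EpCAM+ Id2KO cells (476) DESeq2 called 1146, and for the E13.5 sort (234) 466. For posterior against anterior, wt (646) gave 1549 with DESeq2, 1654 with no filter and 47 alone, and labelled Id2KO (269) gave 544 and 675 with DESeq2 and no filter. Tomato selection (0) gave 1 and 66, the mean of 3 segments (1041) 1651 and 1760, and the interaction (43) 537 and 868. Leaving out single libraries gave 77 to 301 genes for Id2KO against wt at E11.5, 215 to 554 for the Lgr5 sort there, 34 to 1465 for wt and 129 to 191 for labelled Id2KO segments, 0 to 1 for Tomato, 671 to 1010 for the mean of 3 segments and 11 to 204 for the interaction. Among genes not called, the ranges that crossed 0 with single libraries left out were as follows. E11.5 Id2KO against wt: Hnf4g -0.31 to 0.05 and Isx -0.09 to 0.06. Lgr5+ against EpCAM+ Id2KO cells: Cdx1 -1.9 to 0.44, Cdx2 -0.38 to 0.1, Foxa3 -0.34 to 0.08, Hnf4g -0.44 to 0.03 and the Cdx1 to Cdx2 ratio -2.21 to 0.15. E13.5 sort: Foxa1 -0.22 to 0.06 and Hnf4g -0.2 to 0.04. Stage: Cdx1 -0.5 to 0.3. Adult against E13.5 Lgr5+: the Foxa3 to Foxa2 ratio -0.47 to 0.23. Wt segments: Foxa2 -0.74 to 0.01 and Hnf4g -0.03 to 0.11. Labelled Id2KO segments: Cdx2 -0.41 to 0.13, Foxa2 -0.11 to 0.83, Hnf4g -0.45 to 0.08 and Isx -0.01 to 0.09. Tomato: Cdx1 -0.13 to 0.02, Cdx2 -0.04 to 0.49, Foxa1 -0.53 to 0.07, Foxa2 -0.92 to 0.01, Foxa3 -0.19 to 0.05, Hnf4a 0 to 0.18 and Isx -0.28 to 0.01. Mean of segments: Cdx2 -0.16 to 0.01 and Hnf4a -0.03 to 0.12. Interaction: Hnf4g -0.49 to 0.02. The causes were not tested. With the replicate number as a block, the E11.5 Id2KO Lgr5 sort gave 546 genes and Isx an adjusted p of 0.014 by edgeR. No call among the 8 genes changed there. Of the comparisons with 3 or 4 libraries a group, it alone had every same-numbered pair correlated above 0.1. Elsewhere pairing was partial or not seen. Same-numbered libraries correlated at -0.07 to 0.29 between Id2KO and wt at E11.5, where 3 of 6 were closest to their own number. In the E13.5 sort 7 of 8 were (0.06 to 0.33), and 2 of 6, 2 of 6 and 2 of 8 in the mesenchyme, stage and adult comparisons. Posterior and anterior segments of the same number correlated at 0.17 in labelled Id2KO and at 0 in wt. Those block fits gave 255 genes for Id2KO against wt, 3363 for epithelium against mesenchyme, 312 for the E13.5 sort, 5491 for stage, 4368 for adult against E13.5, 558 and 259 for wt and labelled Id2KO segments, 0 for Tomato, 953 for the mean of segments and 31 for the interaction. They left Foxa3 uncalled in adult against E13.5 cells (0.82, adjusted p = 0.056, edgeR) and the Foxa1 interaction uncalled (1.48, 0.051), and called Isx higher at E13.5 than E11.5 (0.6, 0.013). With TMM, 33 of 120 group levels moved by more than 1 SD. Of 120 levels per kilobase, 112 moved by more than their relative SD with coding length, which is the shorter length for each gene. Cdx1 and Cdx2 levels under about 5 CPM, groups of 2 libraries and the mesenchymal counts near 0 limit what these data can separate.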
